A study of Homo sapiens with 6 samples.

Results

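The predicted miRNAs of these small RNA libraries are 98 rows that carry no database name and are listed by a running number, such as novel_mir35, and a genomic position. They were taken as every row of the predicted miRNA class over 6 tables, identified by number and position together. They make up 98 of 4212 distinct rows in all, beside 1727 names of known mature miRNAs. The libraries came from BEAS-2B, an established immortalised line of human bronchial epithelial cells, harvested 48 h after receiving either the empty plasmid pcDNA3.1 (control, n = 3) or pcDNA-PRMT1 (PRMT1, n = 3). The plasmid of the second group over-expresses PRMT1, a methyltransferase that modifies arginines of histones and RNA-binding proteins. The labels do not say whether the 3 replicates of a group were grown separately; p-values therefore reflect just how these samples vary, and that variation may be technical. Small RNA tables hold no PRMT1 messenger RNA, so the over-expression itself could not be checked from them.

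A canonical miRNA is cut from a hairpin in a longer transcript by DROSHA in the nucleus and by DICER in the cytoplasm, and 1 strand of the short duplex is then kept by an Argonaute protein to silence messenger RNAs. Prediction programs look for stacks of reads on a stretch of genome that can fold into such a hairpin. Folded pieces of ribosomal, transfer and small nucleolar RNA can give the same picture, so a predicted miRNA is a candidate until its processing has been tested. The tables give no target, function or mature sequence for any of the 98 rows, and their sequences are therefore not printed here.

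Library totals were alike, from 23.95 M to 25.79 M counts, so raw counts compare libraries as parts of their totals only. The make-up of the totals differed. Rows other than the pooled exon, intron, repeat and intergenic ones held 19.24 M counts in control library 2 and 14.44 M to 15.80 M in the other libraries. Known miRNAs took 11.54 M to 16.42 M counts, the highest value being that of control library 2. The epithelial miRNAs miR-200a, miR-200b, miR-200c, miR-141, miR-429, miR-205 and miR-203a were all detected. Their sums were 99571 to 126052 counts for the control group and 97277 to 127166 for the PRMT1 group. Most of these counts were from miR-200a-3p, miR-200b-3p and miR-429, each at 20479 or more in every library. The others were low, with miR-200c-3p at 487 to 770, miR-141-3p at 169 to 371, miR-205-5p at 50 to 135 and miR-203a-3p at 34 to 64. They lay below the neural miR-9-5p, at 2177 to 3003. Among lists for other cell types, the sums over all libraries ran from 812 to 1714 for 5 blood miRNAs, 136 to 173 for 3 muscle miRNAs, 2363 to 3505 for 2 neural miRNAs, 280 to 527 for 2 miRNAs of smooth muscle and fibroblasts, and 0 to 2 for 3 pluripotency miRNAs, of which miR-367-3p had 0 throughout. The endothelial miR-126-3p stood at 19224 to 32308 counts and the liver miR-122-5p at 8 to 19. No library was a copy of another: over known miRNAs, counts of the most alike libraries still gave a chi-square of 300.4 per degree of freedom.

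As a class, predicted miRNAs were a very small part of the small RNA of these cells. They summed to 14448, 6826 and 12615 counts in control libraries 1 to 3 and to 18471, 11548 and 16574 counts in PRMT1 libraries 1 to 3. Control library 2 was the lowest and PRMT1 library 1 the highest, and the groups overlapped. Of all counts, the class held 0.0463% ± 0.0168 (SD, n = 3) under the empty plasmid and 0.0636% ± 0.0167 (SD, n = 3) under pcDNA-PRMT1, with a two-sided exact permutation p of 0.3, where 3 against 3 libraries cannot give a p below 0.1. Without control library 2 the difference fell from 0.0174 to 0.00783 percentage points, without PRMT1 library 1 it was 0.0107, and without novel_mir35, the most abundant member, 0.0105 percentage points. As shares of known and predicted miRNA counts together, the values were 0.0890% ± 0.0413 and 0.120% ± 0.0208, with an exact permutation p of 0.4. The mean share of reads from exons of longer genes was also higher in the PRMT1 group, at 4.23% ± 1.42 under the empty plasmid and 6.07% ± 0.649 under pcDNA-PRMT1. The groups did not overlap, with an exact permutation p of 0.1. They did overlap for intron, intergenic and repeat reads, with exact permutation p-values of 0.9, 0.9 and 0.6. The same held for ribosomal and small nucleolar RNA, with exact permutation p-values of 0.6 and 0.8. By library the exon and predicted miRNA shares differed in order. PRMT1 library 2 had more exon reads (5.43%) than control libraries 1 and 3 (4.87% and 5.21%), but a smaller predicted miRNA share (0.0448% against 0.0590% and 0.0525%). Control library 2 was the lowest there too, at 651963 exon counts against 1193288 to 1612245 in the other libraries. It was likewise lowest for intron (8.74%), intergenic (5.60%) and repeat reads (6.39%). The part of exon reads in the predicted miRNA total was not tested.

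The number of predicted miRNAs listed was 73, 47 and 85 in control libraries 1 to 3 and 77, 62 and 72 in PRMT1 libraries 1 to 3. Control library 2 listed the fewest and control library 3 the most, so both extremes lay within 1 group. The means of 68.3 ± 19.4 and 70.3 ± 7.64 rows differed by less than the spread between libraries (exact permutation p = 0.9). The difference of 2 rows turned to -8.67 without control library 2 and to -1.33 without PRMT1 library 1. Every predicted row held at least 10 counts in each library that lists it, whereas known miRNAs were listed down to 1 count. An absent row can therefore stand for anything from 0 to 9 counts, or for a hairpin not called in that library, and a fold against an absent row depends on the value put there.

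**Figure D1:**
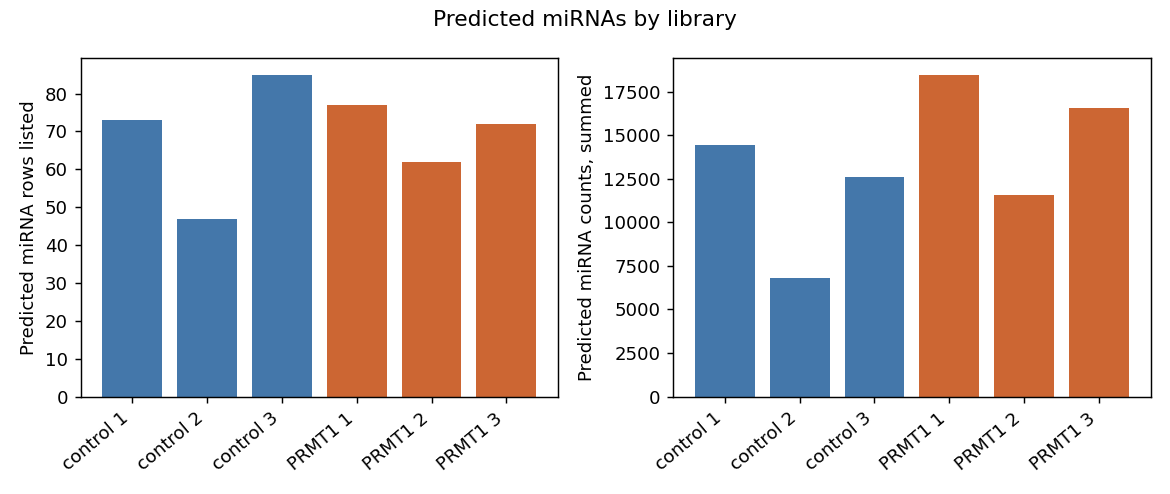
Bars give, for each of the 6 libraries, the number of predicted miRNA rows listed (left) and their summed counts (right), with control libraries in blue and PRMT1 libraries in orange. Control library 2 is the lowest in both panels, at 47 rows and 6826 counts.

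The positions carry the chromosome names of GRCh37, the build named in the submitters' processing notes, and are given here as listed. Gene context was not assessed, because the annotation at hand is of GRCh38. The 98 positions lay on 27 chromosomes or scaffolds, 48 on the plus and 50 on the minus strand. Chromosomes 1 and 19 held 10 each, or 10.2% of the rows, where RefSeq places 8.71% and 8.32% of its 1562 human hairpins. Chromosome 17 held 8 rows and the X chromosome 6, or 8.16% and 6.12%, against 6.08% and 6.21% of RefSeq hairpins. There were 4 rows on chrUn_gl000220, an unplaced scaffold that carries copies of the ribosomal RNA repeat, 1 on the scaffold chrUn_gl000229, 1 on the alternative haplotype chr6_mann_hap4, and 1, novel_mir88, on the mitochondrial chromosome. Counting both ends, the loci were 37 to 106 nt long with a median of 60 nt and quartiles of 54 and 69 nt. RefSeq hairpins of known miRNAs were longer, 41 to 164 nt with a median of 80 nt and quartiles of 70 and 90 nt. Of the predicted loci, 75 of 98 were shorter than the lower quartile of the RefSeq hairpins and 10 were longer than their median. Loci with a row in all 6 libraries had a median length of 58.5 nt, close to the 61 nt of the other loci. The 2 collections were built in different ways, so this difference in length is a description.

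A few members held most of the counts. Of 80482 counts in all, novel_mir35 held 23.0%, the 5 most abundant rows 62.5% and the 10 most abundant 77.3%. The median row had 94 counts summed over the 6 libraries, and 613 of the 1727 known names had more. Even novel_mir35 ranked below 115 known miRNAs by summed count. Levels below are CPM on the TMM scale of the fit, given as mean ± SD over the 3 libraries of a group. Counts were divided by the total of the tested named rows times the TMM factor of the library. That factor was 0.749 for control library 2 and 1.04 to 1.09 for the other libraries. CPM values of control library 2 are thus higher than its total of tested rows alone would give.

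The highest member, novel_mir35 (chr15:45490789-45490844, minus strand), had 3286, 1772 and 1730 counts in control libraries 1 to 3 and 4511, 2470 and 4767 in PRMT1 libraries 1 to 3. PRMT1 libraries 1 and 3 were above every control library, while PRMT1 library 2 lay within the control range. Mean levels were 147 ± 51.4 CPM for the control and 245 ± 86.1 CPM for the PRMT1 group. The log2 fold change was 0.74 (SE 0.39), or 1.11 without control library 1. The next, novel_mir97 (chr19:17797639-17797695, minus strand), had 1454, 1491 and 3084 counts in the control against 3959, 2991 and 2765 in the PRMT1 group. Control libraries 1 and 2 were low and control library 3 lay inside the PRMT1 range. Mean levels were 131 ± 59.4 and 200 ± 34.8 CPM (log2 0.61, SE 0.37; 1.10 without control library 3).

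The next members in order of level differed in direction. For novel_mir45 (chr16:85496412-85496468, minus strand) the counts were 1896, 591 and 1549 in the control against 1222, 1003 and 486 in the PRMT1 group, and the groups overlapped through control library 2. Its levels were 86.7 ± 40.7 and 55.4 ± 21.6 CPM (log2 -0.65, SE 0.50). Leaving out control library 1 gave -0.29, leaving out PRMT1 library 3 gave -0.31 and leaving out control library 2 gave -0.98, so single libraries set its size. For novel_mir21 (chr16:47538726-47538790, plus strand) the counts were 803, 317 and 750 in the control against 1214, 685 and 1312 in the PRMT1 group. It followed the order seen for novel_mir35 in the PRMT1 group, with libraries 1 and 3 high and library 2 inside the control range. Its levels were 40.3 ± 15.9 and 67.0 ± 23.3 CPM (log2 0.73, SE 0.44), or 0.44 without control library 2.

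Among the other 8 members of highest level, novel_mir29 (chr20:37053842-37053916, minus strand) was one of the steadier ones. It had 985, 684 and 718 counts in the control against 403, 792 and 584 in the PRMT1 group, that is 51.9 ± 8.54 and 36.7 ± 11.6 CPM (log2 -0.50, SE 0.32). PRMT1 library 1 was its low point, and without that library the log2 fold change was -0.27, as it was -0.28 without control library 1. Counts of novel_mir6 (chrUn_gl000220:111189-111244, plus strand) were 715, 204 and 219 in the control against 316, 574 and 398 in the PRMT1 group, with the highest and lowest values both in control. Its log2 fold change of 0.12 (SE 0.54) rose to 0.98 without control library 1. It turned to -0.15 and -0.09 when control library 2 or 3 was left out, and to -0.10 on leaving out PRMT1 library 2. Counts of novel_mir57 (chr3:184032888-184032938, minus strand) were 403, 164 and 506 in the control against 461, 232 and 223 in the PRMT1 group. Its log2 fold change of -0.30 (SE 0.49) ran from -0.70 without PRMT1 library 1 to 0.080 without control library 3. For novel_mir3 (chr13:21277855-21277895, plus strand) the PRMT1 range lay inside the control range, at 284, 126 and 392 counts in the control against 365, 253 and 352 in the PRMT1 group. Its log2 fold change was 0.22 (SE 0.43), with -0.10 and 0.64 on leaving out control library 2 or 3. The remaining 4, novel_mir81, novel_mir93, novel_mir62 and novel_mir37, are described with the comparison of the groups.

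**Figure D2:**
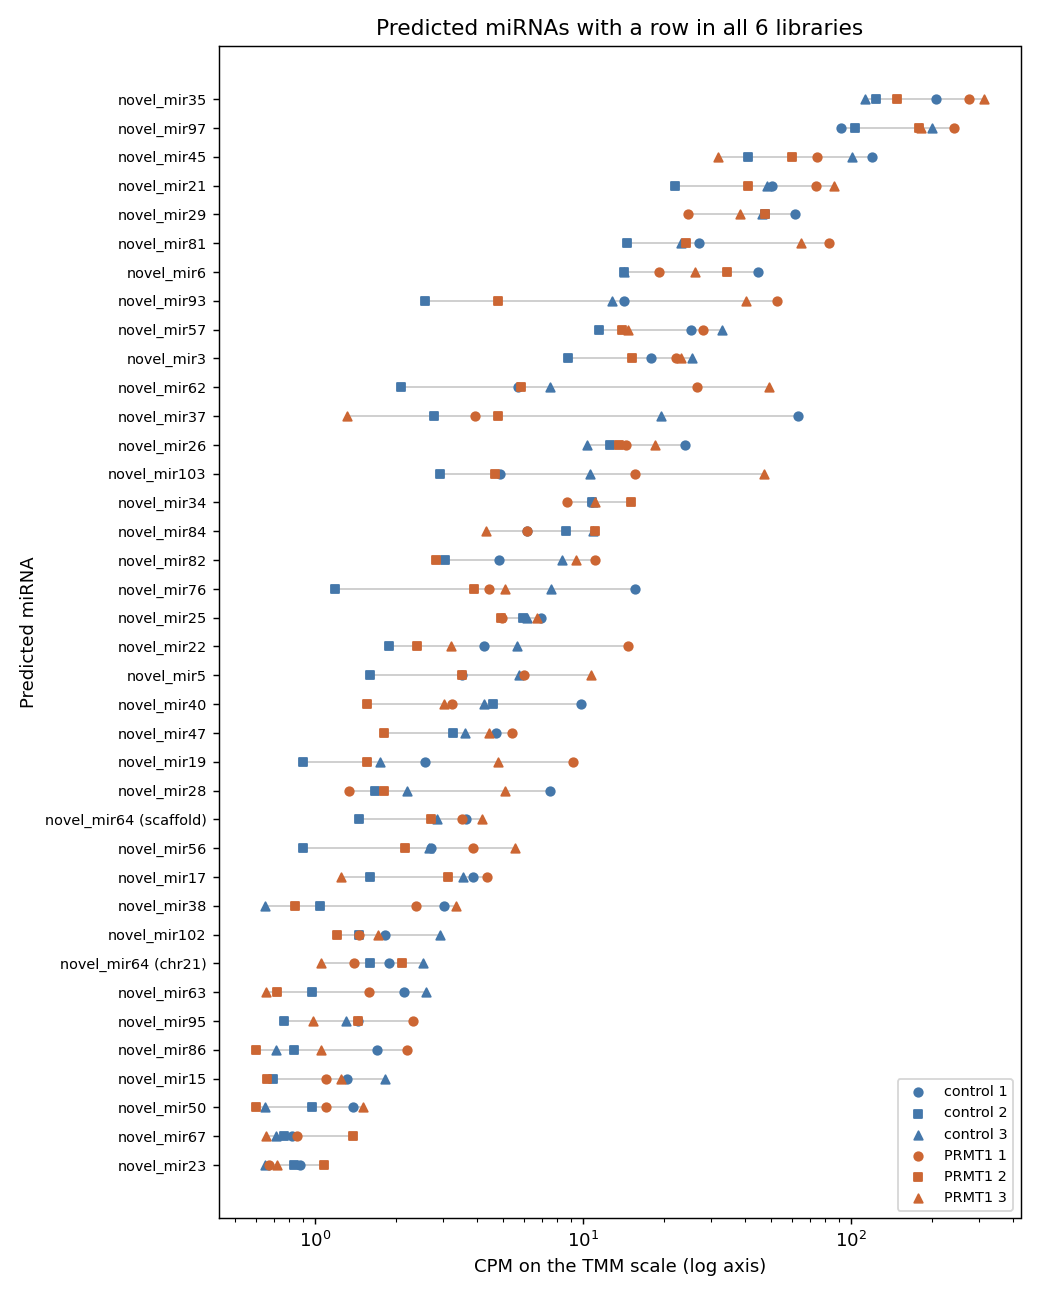
Each line is 1 of the 38 predicted miRNAs with a row in all 6 libraries, ordered by mean level; points give the CPM in each library on the TMM scale (log axis), blue for control and orange for PRMT1, and the shape marks the replicate number. Levels span 0.804 to 196 CPM on average, and control library 2 (blue squares) is the lowest point for 15 of the 38.

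Recurrence over libraries was uneven. A row was present in all 6 libraries for 38 of the 98 members (38.8%), in 5 for 14, in 4 for 9, in 3 for 13, in 2 for 19 and in 1 for 5. The 38 recurring members held 94.7% of the predicted miRNA counts. Of 588 possible entries 172 were absent, 51 of them in control library 2, and 10 of the 14 members present in 5 libraries lacked only that library. Without it, 48 of 98 members (49.0%) had a row in all 5 others.

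Known miRNAs were listed at the same minimum in all libraries more often than predicted ones of like level. An absent predicted row is taken here as below 10 counts, though its hairpin may only not have been called in that library. Of 793 known names with at least 10 counts in some library, 587 (74.0%) had at least 10 in all 6. Among names whose highest count was 20 to under 50, 8 of 29 predicted (27.6%) and 91 of 150 known miRNAs (60.7%) had at least 10 counts in every library. For highest counts of 50 to under 200 these were 12 of 23 (52.2%) and 164 of 175 (93.7%). At 200 counts or more the classes were alike, with 17 of 17 predicted and 309 of 312 known miRNAs. At 10 to under 20 counts both recurred rarely, 1 of 29 and 3 of 136. Without control library 2 the shares in all 5 other libraries were 44.8% and 67.3% for highest counts of 20 to under 50, and 69.6% and 94.9% for 50 to under 200. Rows of 1 library share its depth and handling, so these shares are a description with no test.

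**Figure D3:**
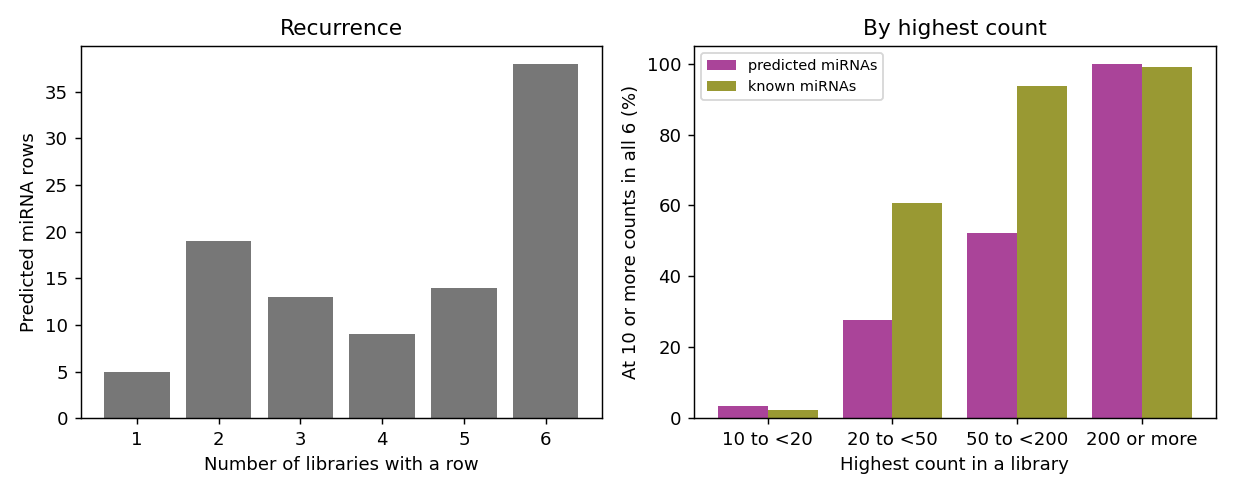
Left, the number of predicted miRNA rows present in 1 to 6 libraries, with 38 in all 6. Right, the share of predicted and known miRNAs with at least 10 counts in all 6 libraries (in %), by the highest count they reach in a library. Predicted miRNAs are below known ones at highest counts of 20 to under 50 (27.6% and 60.7%) and 50 to under 200 (52.2% and 93.7%). An absent predicted row is taken as below 10 counts, though it may be a hairpin not called.

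The 5 members found in 1 library were low in counts. They were novel_mir2 (chr17:17739745-17739806) with 56 counts in control library 1, novel_mir36 (chr9:134365938-134366022) with 53 in control library 3, novel_mir27 (chr6:26305712-26305787) with 28 in PRMT1 library 1, the position of novel_mir63 on chr7:2883415-2883454 with 11 in control library 1, and novel_mir42 (chr6_mann_hap4:3826452-3826539) with 10 in control library 1. The first of these had the highest count of any member listed in control libraries alone. Members in exactly 2 libraries reached at most 54 counts. In 12 of these 19 the pair of libraries came from both groups, in 4 from control and in 3 from PRMT1 alone. Control library 2 listed none of the 19 and control library 3 listed 15 of them. Over all members, 9 were listed in control libraries only and 5 in PRMT1 libraries only, at no more than 56 and 28 counts.

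Positions near each other on the same strand were few. Within 10 kb, the distance often used to call known miRNAs a cluster, there were 6 pairs holding 12 members. The overlapping pair shares 25 nt and 1 number, novel_mir25, at chr10:70519047-70519115 and chr10:70519091-70519153. The first position had 111, 86 and 95 counts in the control against 82, 82 and 102 in the PRMT1 group, the smallest spread of the recurring members at a highest-to-lowest ratio of 1.42. The second had 11, 0 and 11 counts in the control against 12, 0 and 0 in the PRMT1 group, where 0 stands for an absent row. How reads were divided between overlapping positions was not given in the sources used here, so the 2 are not separate observations.

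The other pairs were picked for their positions, outside the rule for named members. On chromosome 8, novel_mir62 and novel_mir32 lie 72 nt apart on the minus strand, at 69218498-69218542 and 69218615-69218658. Counts of novel_mir32 were 0, 0 and 10 in the control against 16, 0 and 182 in the PRMT1 group, those of novel_mir62 91, 30 and 116 in the control against 436, 98 and 754 in the PRMT1 group. Both were highest in PRMT1 library 3 and second highest in PRMT1 library 1. On chromosome 20, novel_mir29 and novel_mir34 lie 8587 nt apart, and novel_mir34 had 171, 155 and 167 counts in the control against 143, 252 and 168 in the PRMT1 group. Both were lowest in PRMT1 library 1, but novel_mir29 was highest in control library 1 and novel_mir34 in PRMT1 library 2. On chromosome 19, novel_mir70 and novel_mir74 lie 436 nt apart. Counts of novel_mir70 were 75, 0 and 96 in the control against 73, 28 and 39 in the PRMT1 group, whereas novel_mir74 never exceeded 11.

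The scaffold chrUn_gl000220 held the remaining pairs. There novel_mir6 and novel_mir1 are 450 nt apart, and novel_mir76 and one position of novel_mir64 are 1090 nt apart. Counts of novel_mir1 (111695-111745) were 25, 10 and 0 in the control against 69, 36 and 74 in the PRMT1 group, so that every PRMT1 library was above every control library. Its neighbour novel_mir6 had its highest and its lowest counts in control, as given above. Counts of novel_mir76 (150824-150881) were 249, 17 and 117 in the control against 73, 65 and 78 in the PRMT1 group. Control libraries 1 and 2 were its extremes, 13.2-fold apart in CPM, and its log2 fold change of -0.86 (SE 0.81) turned to 0.078 without control library 1, and was -1.37 without control library 2. The number novel_mir64 is listed on this scaffold at 151972-152028, with 58, 21 and 44 counts in the control against 58, 45 and 64 in the PRMT1 group, and on chr21:9825923-9825979, with 30, 23 and 39 and 23, 35 and 16 counts. The 4 scaffold members did not share 1 order of libraries. Counts on rows of ribosomal RNA were 830147, 595547 and 1000360 in the control against 408219, 1040248 and 687394 in the PRMT1 group, and their part in the scaffold members was not tested.

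The comparison of PRMT1 with control asked how these small RNAs respond to PRMT1. No predicted miRNA passed an adjusted p of 0.05 by edgeR's quasi-likelihood test, 0 of 72 tested, and the lowest adjusted p among them was 0.9997. The fit covered 1712 rows of all named classes, of which 0 passed (percent called 0). At an unadjusted p under 0.05 there were 6 of 72 predicted miRNAs, 3 higher and 3 lower in PRMT1 libraries, against 60 of all 1712 rows (3.5%, of which 1.87% higher and 1.64% lower). DESeq2 called 2 predicted miRNAs, novel_mir7 and novel_mir73 (adjusted p = 0.0348 for both), among 10 calls in 4208 rows of all classes (0.238%). Only 3474 of the 4208 rows were given an adjusted p by DESeq2, but all 98 predicted miRNAs were. With limma-voom 0 were called. Of the 98 members 26 had too few counts to be tested and 34 of those tested lacked a row in at least 1 library. Such a member can pass the filter through 1 group alone, so the 38 recurring members, all of which were tested, are given on their own. At an unadjusted p under 0.05 there were 4 of the 38, 2 higher and 2 lower. The 6 of 72 also hold novel_mir7 and novel_mir73, each listed in 1 group alone. The median log2 fold change of the 38 was 0.12, with 23 of 38 above 0. Of all tested rows 50.2% were above 0, and the median over all rows was 0.00. Leaving out control library 1 moved the median of the 38 to 0.46, with 27 above 0, and that of all rows to 0.10. Leaving out control library 2 moved the median of the 38 to 0.08, with 20 above 0, and that of all rows to 0.01. Over the 72 members tested with all libraries the median was 0.13, and over the same 72 it was -0.08, with 34 above 0, on leaving out control library 2. With scaling by library size only, the median over all rows moved to 0.15, 63.9% of all rows lay above 0, and 45 of 72 predicted miRNAs did, against 43 with TMM.

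On the higher side, the 6 tested members with the smallest p were novel_mir7, novel_mir62, novel_mir81, novel_mir19, novel_mir1 and novel_mir103, none past the threshold and with adjusted p-values of 0.9997 by edgeR. For novel_mir62, the counts given above average 5.10 ± 2.77 CPM under the empty plasmid and 27.3 ± 21.8 CPM under pcDNA-PRMT1 (log2 2.42, SE 0.85). PRMT1 libraries 1 and 3 stood well above the control range and PRMT1 library 2 fell within it. Counts of novel_mir81 (chr17:8023595-8023700, minus strand, the longest locus at 106 nt) were 432, 209 and 357 in the control against 1356, 403 and 992 in the PRMT1 group. Its levels were 21.6 ± 6.43 and 57.2 ± 29.9 CPM (log2 1.41, SE 0.51), again with PRMT1 library 2 inside the control range. Leaving out PRMT1 library 3 lowered the log2 fold change of novel_mir62 to 1.69. Over all alternatives run it lay between 1.69 and 2.90 for novel_mir62 and between 1.05 and 1.78 for novel_mir81.

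A like order of libraries was seen in 3 other named members. Counts of novel_mir103 (chr5:180692669-180692755, plus strand) were 78, 42 and 164 in control and 257, 78 and 722 with pcDNA-PRMT1 (log2 1.87, SE 0.90; 0.76 without PRMT1 library 3, 2.55 without control library 3). Counts of novel_mir93 (chrX:128835677-128835725, minus strand) were 227, 37 and 197 in the control against 870, 80 and 616 in the PRMT1 group (log2 1.73, SE 0.97). For novel_mir19 (chr2:100938493-100938540, plus strand) they were 41, 13 and 27 in the control against 151, 26 and 73 in the PRMT1 group (log2 1.56, SE 0.71; 0.86 on leaving out PRMT1 library 1). In all 3 the 2 highest libraries were PRMT1 libraries 1 and 3, library 2 of each group was lowest, and the groups overlapped. The SDs within the PRMT1 group were as large as these differences, at 22.2 CPM around a mean of 22.5 CPM for novel_mir103 and 24.9 CPM around 32.7 CPM for novel_mir93.

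The other 2 on the higher side had absent rows, novel_mir7 in all 3 control libraries and novel_mir1 in control library 3 only. Counts of novel_mir7 (chr17:1552367-1552437, plus strand) were 27, 11 and 13 in PRMT1 libraries, and no control library listed it. With absent rows at 0 its log2 fold change depends on the prior count and is no bound. With absent rows at 9 counts, the most that an unlisted row could hold below the minimum of 10, it was 0.81 instead of 7.06. For novel_mir1 the log2 fold change was 2.29 (SE 1.10), 3.47 without control library 1, 1.95 (SE 0.53) with absent rows at 9 counts and 1.75 (SE 0.60) without control library 3, the one that lacks its row.

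On the lower side the 6 of smallest p were novel_mir73, novel_mir37, novel_mir40, novel_mir63 on chromosome 1, novel_mir29 and novel_mir45, also with adjusted p-values of 0.9997 by edgeR. The member with the widest spread of the 38 was novel_mir37 (chr10:118608238-118608283, plus strand), with 1011, 40 and 301 counts in the control against 65, 80 and 20 in the PRMT1 group. Its highest level was 48.3 times its lowest, and control library 2 lay inside the PRMT1 range. The means were 28.6 ± 31.3 CPM under the empty plasmid and 3.35 ± 1.82 CPM under pcDNA-PRMT1 (log2 -3.09, SE 1.12), or -1.66 without control library 1. Counts of novel_mir40 (chr11:13347771-13347835, minus strand) were 156, 66 and 66 in the control against 53, 26 and 46 in the PRMT1 group, with every PRMT1 library below every control library. Its levels were 6.21 ± 3.09 and 2.60 ± 0.907 CPM (log2 -1.26, SE 0.48), or -0.72 without control library 1.

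The position of novel_mir63 on chr1:31381678-31381733 had 34, 14 and 40 counts in the control against 26, 12 and 10 in the PRMT1 group. Its log2 fold change was -0.94 (SE 0.57). Leaving out control library 3 gave -0.61 and leaving out PRMT1 library 1 gave -1.45. Counts of novel_mir73 (chr1:63966759-63966831, minus strand) were 13, 16 and 12 in control libraries, and no PRMT1 library listed it. With absent rows at 9 counts its log2 fold change was -0.69 in place of -6.83. In all, the groups did not overlap in 4 of 72 tested members, novel_mir7 and novel_mir1 on the higher and novel_mir73 and novel_mir40 on the lower side, against 8.29% of all tested rows (3.56% higher and 4.73% lower). Both novel_mir7 and novel_mir73 passed the filter only through the group that lists them and had to differ.

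**Figure D4:**
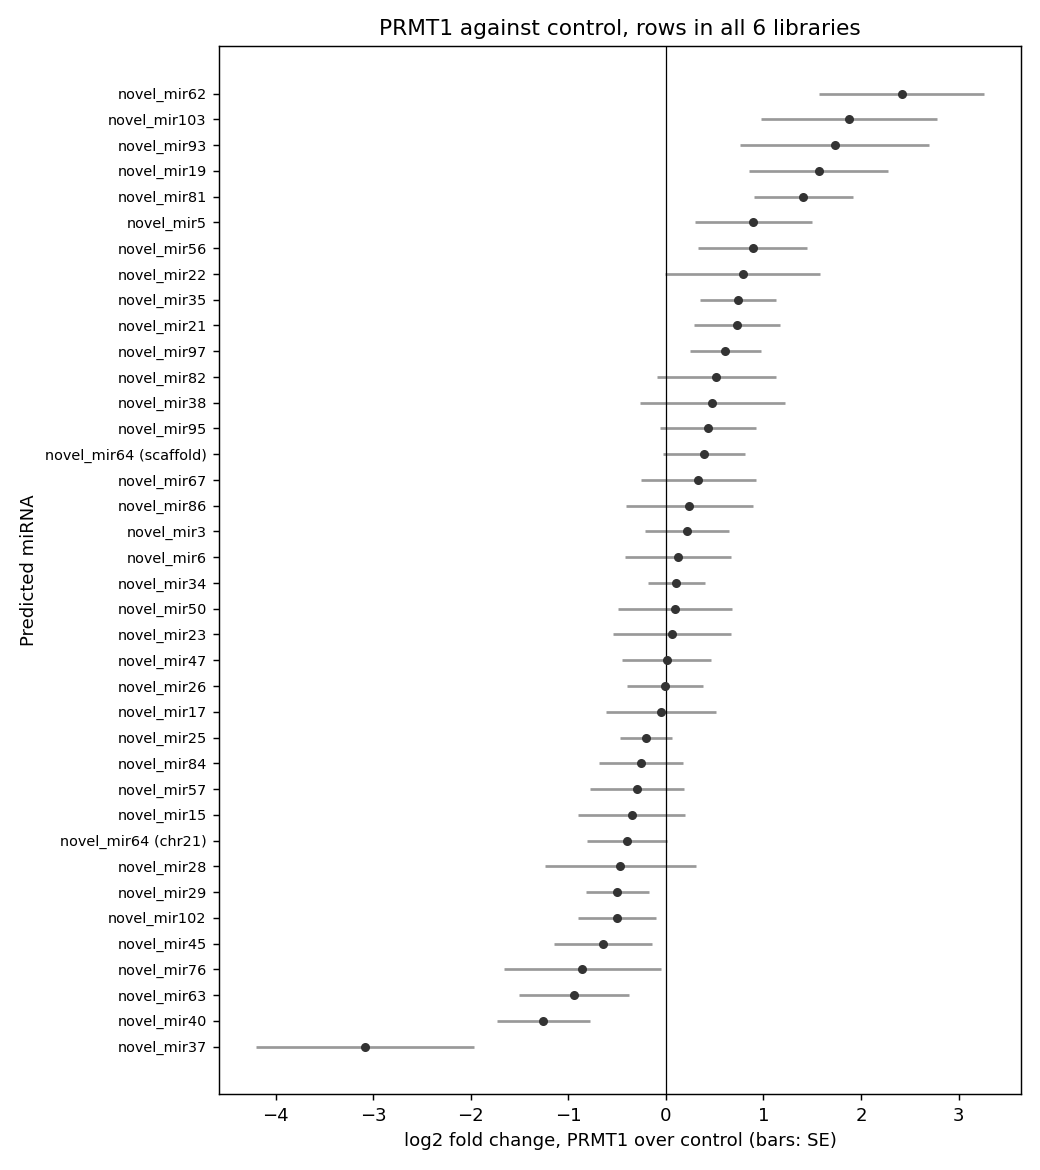
Points give the log2 fold change of PRMT1 over control and bars its SE for the 38 predicted miRNAs with a row in all 6 libraries. Values run from -3.09 for novel_mir37 to 2.42 for novel_mir62, 23 of 38 lie above 0, and none passed an adjusted p of 0.05 by edgeR.

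Predicted miRNAs varied more between replicates than known miRNAs of the same level, which is given as a description with no test because all rows share the same libraries. The SD of log2 CPM within groups, with a pseudocount of 0.5 CPM, had a median of 0.57 over the 38 recurring members, with quartiles of 0.41 and 0.80. Over 471 known miRNAs between 0.804 and 196 CPM with at least 10 counts in every library, the median was 0.35, with quartiles of 0.26 and 0.49. The gap held in each range of level: medians were 0.52 and 0.34 under 5 CPM (17 predicted miRNAs), 0.80 and 0.36 from 5 to under 20 CPM (12), and 0.67 and 0.34 from 20 CPM up (9). Of the 38 members, 25 lay above the upper quartile of the known miRNAs. At any level, the median SD was 0.47 over all 1712 tested rows, 0.35 over the 669 known and 0.75 over the 72 predicted miRNAs among them. The spread of other classes at a like level was not compared, so a wider spread than in known miRNAs may not be particular to predicted miRNAs. The ratio of the highest to the lowest CPM had a median of 3.34 in predicted and 2.13 in known miRNAs, and reached at least 5 in 13 of 38 (34.2%) and 29 of 471 (6.16%). Without control library 2 the median SDs were 0.54 and 0.32 and the median ratios 2.90 and 2.01. The wider spread shows in the precision of the comparison, with a median SE of 0.54 for a log2 fold change of the 38 members and 0.38 for the known miRNAs of that level.

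**Figure D5:**
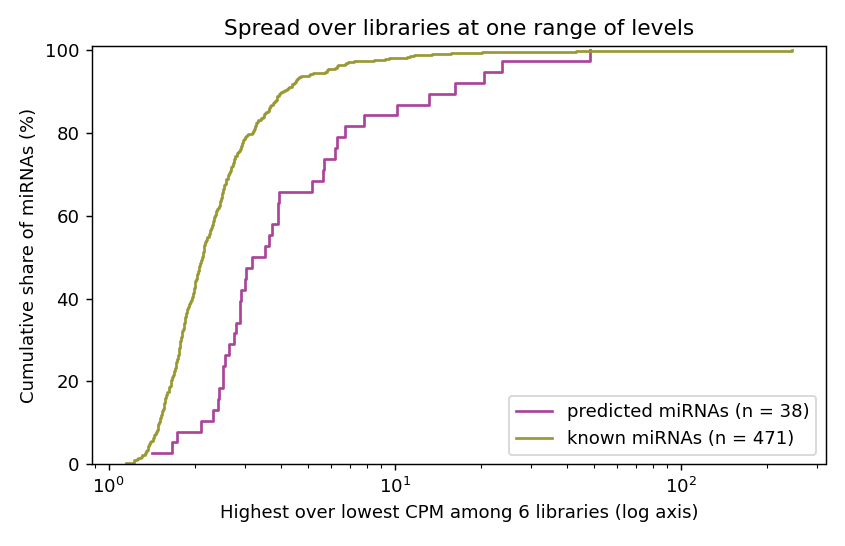
Curves give the cumulative share (in %) of miRNAs by the ratio of their highest to their lowest CPM among the 6 libraries (log axis), for 38 predicted miRNAs and 471 known miRNAs of the same range of levels. Up to the highest ratios the curve of the predicted miRNAs lies to the right, with a median ratio of 3.34 against 2.13.

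Control library 2 was the low point for the largest number of recurring members, 15 of 38, and the high point for 0 of 38. Among the known miRNAs of that level it was lowest for 15.1% and highest for 18.0%. PRMT1 library 1 was highest for 10 of the 38, control library 1 and PRMT1 library 3 for 9 each, control library 3 for 6 and PRMT1 library 2 for 4. In the same order, these libraries were highest for 30.8%, 19.1%, 14.0%, 12.1% and 5.94% of those known miRNAs. PRMT1 library 2 was lowest for 8 of the 38 members and for 29.5% of those known miRNAs. Other members had their low point outside control library 2. The lowest recurring member, novel_mir23 (chosen after its values were seen), had 14, 12 and 10 counts in the control against 11, 18 and 11 in the PRMT1 group. For novel_mir26, also chosen after its values were seen, there were 382, 181 and 159 counts in the control against 238, 227 and 281 in the PRMT1 group (log2 -0.01, SE 0.39). Their ratios of highest to lowest CPM were 1.67 for novel_mir23 and 2.33 for novel_mir26, the latter above the median of 2.13 in known miRNAs.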

How the data were processed

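Small RNA was sequenced and its reads filtered by BGI on the BGI-500 platform, per the series' design text. The count columns deposited by the authors hold whole reads per row, and their TPM values equal counts scaled to the library total (CPM) within 0.005 and served only for that check. Per the submitters' processing notes, the tools were HISAT, Bowtie2 and RSEM and the build GRCh37.p13; neither versions nor roles are stated. Not given in the sources used here are the prediction program, how reads matching several rows were divided, and strand use. The labels' library protocol reads as one for longer RNA, by poly(A) selection or ribosomal depletion. Groups and replicate numbers came from the sample titles.

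Rows were joined by identifier, class and description, with absent rows at 0 counts. The 4 pooled rows (exon, intron, repeat and intergenic, 23.3% to 40.4% of a library) name no feature and stayed out of the fit. Rows passing filterByExpr were scaled with TMM and tested with edgeR 4.0.16 (robust quasi-likelihood, no block, Benjamini-Hochberg over 1712 rows, threshold 0.05) in R 4.3.3. An SE is the log2 fold change over the square root of the F statistic. For single values per library, exact permutation tests (two-sided, scipy 1.17.1) were used. Alternatives were other scalings, DESeq2 1.42.0, limma-voom (limma 3.58.1), other filters, miRNA rows only, a block, summed overlapping loci, each library left out and, added after seeing the data, other values for absent rows, other detection limits and another denominator. The fit was tested on simulated data, but the outcome is not given here. RefSeq hairpin lengths came from GRCh38.p14.

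Named members are the 12 of highest mean CPM, the 6 tested ones of smallest p per direction, the 5 of highest count among those in 1 library, the 5 tested ones of largest highest-to-lowest ratio, and overlapping pairs. Members and lists were chosen with earlier results of these data known. Of 10 mirtrons on a list, 6 were tested.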

Additional observations from a re-analysis of the deposited data

How the results depend on the processing

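The count of 0 predicted miRNAs past the threshold by edgeR stayed 0 under the other scalings, limma-voom, no filter, the stricter filter, miRNA rows only, summed overlapping loci, each library left out (0 in each case) and each setting for absent rows. DESeq2 called 2 of 98, both with no row in 1 whole group, among 10 of 4208 rows of all classes, 3474 of which had an adjusted p. The cause was not tested. At an unadjusted p under 0.05 there were 6 of 72 with TMM (3.5% of all rows), 14 of 98 without a filter (4.28% of all rows) and 12 of 89 without PRMT1 replicate 2 (9.59% of all rows). With the replicate number as a block 0 passed, and 11 of 72 had an unadjusted p under 0.05 (3.56% of all rows). In the main fit the 6 were novel_mir7 and novel_mir73, each with no row in 1 whole group, and 4 of the 38 recurring members. The counts of the other settings were not split in this way. Deviations of same-numbered libraries correlated at 0.13, 0.23 and 0.02. Control library 1 correlated best with PRMT1 library 3 (0.19), but control libraries 2 and 3 correlated best with the PRMT1 library of their own number. The remaining pairs of unlike number lay between -0.26 and -0.01. These values do not settle whether the numbers pair the libraries. The main fit had no block because the labels state no pairing.

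Leaving out a library, the difference in the share of all counts ran from 0.00783 to 0.0268 percentage points and that in rows listed from -8.67 to 10.3. The number of members in all libraries ran from 38 to 48; it was 25 at a limit of 20 counts and 13 at 50 counts, which are stricter by construction. Of 22 named members with a fold change, 18 kept their sign under every alternative run. The exceptions, when libraries were left out, were novel_mir6 (-0.15 to 0.98), novel_mir3 (-0.10 to 0.64), novel_mir57 (-0.70 to 0.080) and novel_mir76 (-1.37 to 0.078). Without control replicate 2 and with absent rows at 9 counts, novel_mir6 was at -0.16 and novel_mir3 at -0.12. Row minimums of 10 counts, or 0.388 to 0.417 CPM of a library total, limit what can be said of the 60 members absent from some library.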

Other observations

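Mirtrons, known miRNAs released from short introns by splicing, were set beside the predicted miRNAs as a known class of unusual origin. All 10 on the list were detected, though miR-1225-5p, miR-1236-3p, miR-6515-5p and miR-4745-5p had no more than 6 counts in any library. The summed counts of the 10, 542 to 1158 per library, were under those of the predicted miRNAs, which are sums over 98 rows. Single levels were not lower: the mirtrons tested had mean levels of 1.45 to 28.4 CPM. The median for predicted miRNAs was 0.993 CPM over all 98 and 5.65 CPM over the 38 recurring members. Of the 10, 6 were tested by edgeR and 0 passed or had an unadjusted p under 0.05, with a median log2 fold change of -0.12. The SD of log2 CPM within groups of these 6 ran from 0.15 to 0.57, with a median of 0.43. At the levels compared above the medians were 0.35 for known miRNAs, which include these 6, and 0.57 for predicted miRNAs. Predicted piRNAs, the other class of predicted rows, had the same minimum of 10 counts in every library. They numbered 532, 392 and 537 rows in control and 670, 512 and 652 rows in PRMT1 libraries, and control library 2 was again the lowest.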
